A study of Mus musculus with 12 samples.

Results

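The genes described here encode the proteins of the cytosolic ribosome. They were chosen by name alone: protein-coding genes called Rpl or Rps with a number and at most 1 further letter a, x, y or l, together with Rplp0, Rplp1, Rplp2 and Rpsa, while pseudogenes and the Rps6k kinases were left out. The rule found 80 of the 55487 genes in the count table, 49 of the large (60S) and 31 of the small (40S) subunit, and 78 of them were among the 11314 protein-coding genes with enough counts for a test. The 2 others, Rpl3l and Rpl10l, are paralogs known from muscle and testis and never exceeded 2 counts. Of the 80 genes, 76 encode the standard ribosomal proteins and 4 are paralogs.

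RNA was sequenced from mesenchymal stromal cells (MSCs) grown out of the bone marrow of wild-type C57BL/6 mice, females aged 6 to 8 weeks. All 3 groups had 4 samples. The Negative group was untreated. The A1 group received 50 µM A1, a variant of the Accum molecule that lets cargo leave endosomes, for 6 h. The A1-OVA group received 50 µM A1 together with 1 mg/mL ovalbumin for 6 h, and its protocol text also carries a fragment naming insulin, without an amount, that the A1 protocol lacks. There was no group with ovalbumin alone. The labels do not say whether replicates came from separate cultures or animals, so that every p-value below measures only the spread between these samples.

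A ribosome joins a small subunit, which reads the message, to a large subunit, which forms the peptide bond. Most of these proteins are needed in equal number, and cells adjust their production in large part at translation: the mRNAs start with a run of pyrimidines, the 5′ terminal oligopyrimidine (TOP) tract, through which LARP1 and the kinase mTORC1 hold back or release them. RNA sequencing measures the amount of these mRNAs and not their translation. Surplus ribosomal proteins bind dedicated chaperones or are degraded, and free Rpl5 and Rpl11 bind Mdm2, the ligase that keeps p53 low.

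The TOP tract is shown for 7 members, and for Rack1, a small-subunit protein outside the name rule, because it is the shared sequence feature through which this family is known to be controlled. Each line gives 30 bases from 10 before the annotated start in RefSeq (GRCm38.p6). Capitals mark the C and T run from the annotated start onward. C or T bases just before the start, present in every line, are left in small letters.
Rps6, chr4:86857348-86857377, minus strand: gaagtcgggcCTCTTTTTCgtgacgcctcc
Rps15a, chr7:118116128-118116157, minus strand: tttctgccatCTTCCCTCgccggtgagtga
Rps18, chr17:33955646-33955675, minus strand: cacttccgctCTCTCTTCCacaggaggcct
Rps27, chr3:90213629-90213658, minus strand: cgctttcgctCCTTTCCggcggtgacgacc
Rpl15, chr14:18270967-18270996, minus strand: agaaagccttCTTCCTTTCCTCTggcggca
Rpl28, chr7:4792955-4792984, plus strand: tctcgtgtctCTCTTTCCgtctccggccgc
Rpl35, chr2:39005112-39005141, minus strand: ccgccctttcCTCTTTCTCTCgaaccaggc
Rack1, chr11:48800350-48800379, plus strand: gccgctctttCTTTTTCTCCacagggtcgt
Counted from the annotated start, the runs shown are 7 to 13 bases long.

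A start was listed for 60 of the 80 members. A C followed by at least 4 C or T, beginning within 5 bases of the start and read on the strand of the gene only, was found in 28 of these 60 (46.7%) and in 5718 of 27025 genes of the whole table (21.2%). A missing match says only that these letters are not at the annotated start.

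Between 13702348 and 16881995 reads were counted per sample. Markers fit a stromal culture in part: Col1a1 averaged 3330 counts per 1000000 counted reads (CPM) in the Negative group and Pdgfra 247 CPM, but the MSC markers Thy1 (0.267 CPM) and Nt5e (0.539 CPM) were close to 0. The summed level of 10 hematopoietic and macrophage markers was 9.53 to 10.5 CPM in the Negative, 12.1 to 15.0 CPM in the A1 and 10.7 to 13.2 CPM in the A1-OVA samples, most of it Cd14, and 4 of the 10 never exceeded 3 counts. Endothelial markers stayed at or below 0.916 CPM and erythroid markers at or below 0.0591 CPM in sum. The part of other cell types in the results below was not tested, and in bulk RNA fewer cells of a type and less RNA per cell cannot be told apart.

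Ribosomal protein genes held on average a slightly larger part of the messages after either treatment. In the Negative samples they held 3.57%, 3.17%, 3.24% and 3.17% of protein-coding counts in replicate order. The A1 samples held 3.56%, 3.40%, 3.54% and 3.37%, and the A1-OVA samples 3.52%, 3.40%, 3.31% and 3.48%. The groups overlapped only through Negative replicate 1, which lay above the 3 other Negative samples and above every treated sample. The means were 3.29% ± 0.193 (SD, n = 4), 3.47% ± 0.0974 (SD, n = 4) and 3.43% ± 0.0893 (SD, n = 4). Messages encoded by mitochondrial DNA went the other way, with 2.99 to 3.24% of protein-coding counts in the Negative, 2.49 to 2.94% in the A1 and 2.49 to 2.74% in the A1-OVA samples. Taking them out of the total left the ribosomal protein share at 3.39%, 3.56% and 3.52% in the same order.

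**Figure D1:**
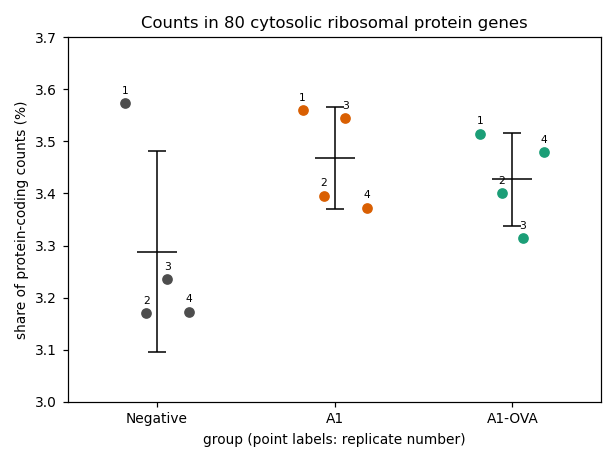
Share of protein-coding counts held by the 80 ribosomal protein genes (%), by group; each point is 1 sample with its replicate number, the long bar is the mean and the whiskers are ± 1 SD (n = 4), and the axis starts at 3.0%. Negative replicate 1 sits at 3.57%, apart from the other Negative samples at 3.17 to 3.24%, while the treated samples lie between 3.31 and 3.56%.

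Part of the spread within groups was common to the members. Of the 78 tested members, 71 were highest in Negative replicate 1 among the 4 Negative samples, and 77 lay above their own Negative mean there, compared with 20, 23 and 6 in replicates 2, 3 and 4. In the A1 samples 78, 76, 78 and 76 members lay above the Negative mean, and in the A1-OVA samples 78, 76, 70 and 77. The median SD of a member's log2 CPM within the Negative group was 0.088, and 0.049 once the median deviation of each sample was taken off. The same step took it from 0.0546 to 0.0417 in the A1 and from 0.0659 to 0.0461 in the A1-OVA group. Counts of members that pass a test are therefore not counts of independent events.

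**Figure D2:**
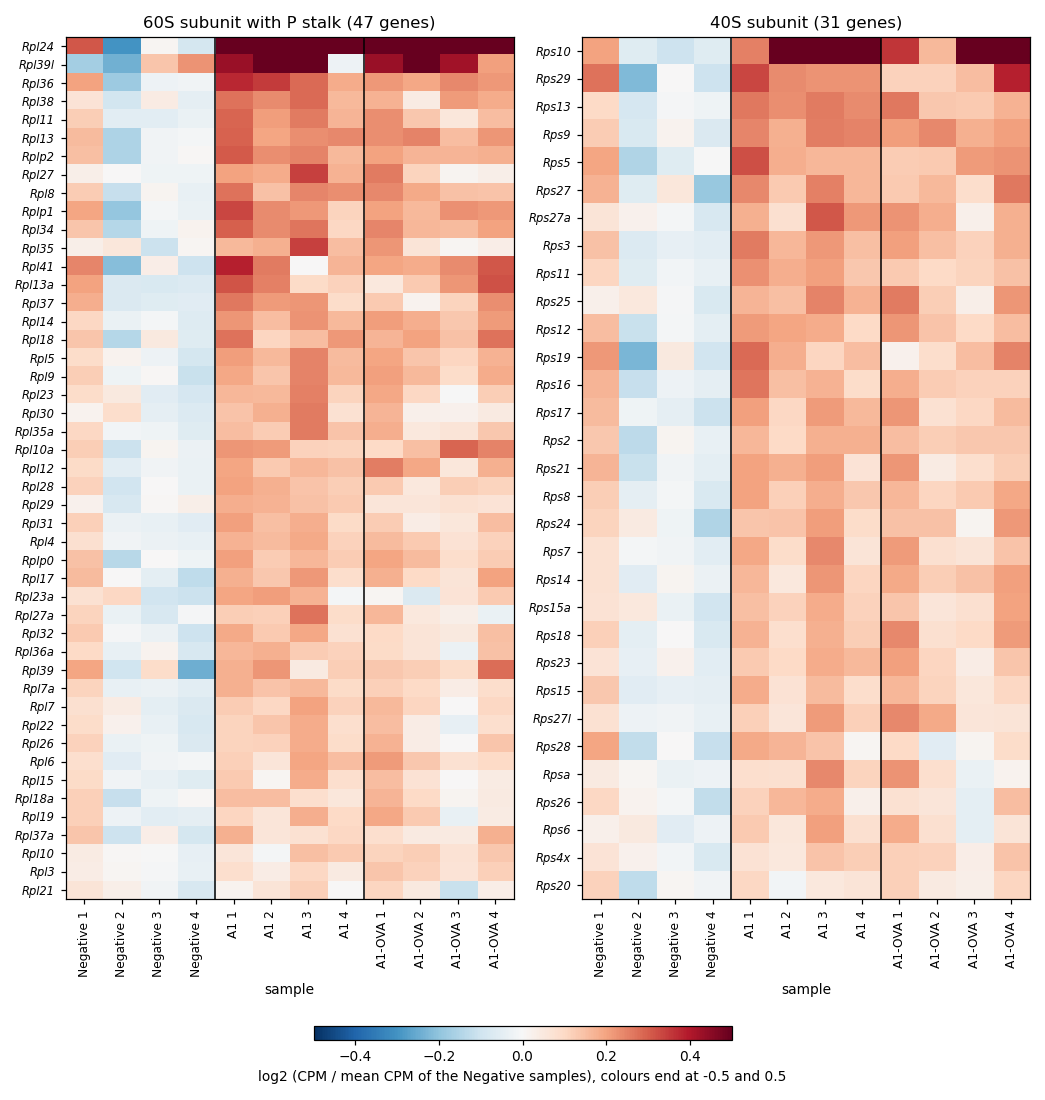
Level of each tested member in each sample, as log2 of its CPM over its mean CPM in the Negative samples (colour, cut at -0.5 and 0.5), 47 genes of the 60S and 31 of the 40S subunit ordered by the A1 fold change. Negative replicate 1 is redder than the other Negative samples in nearly all rows, and most cells of the 8 treated samples are red.

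With A1 most cytosolic ribosomal protein mRNAs were higher by a small amount and none passed the test as lower. In edgeR's quasi-likelihood test with Benjamini-Hochberg adjustment over all 11314 genes, 69 of 78 members (88.5%) were higher at an adjusted p under 0.05, where 31.7% of all tested genes were higher. None was lower, where 31.1% of all genes were, and 74 were higher and 0 lower at an unadjusted p under 0.05 (33.1% and 32.8% of all genes). DESeq2 called 67 members higher and 0 lower, while 50.5% of its calls over all genes were higher. All 78 members had a log2 fold change above 0 (49.7% of all genes did), with a median of 0.16, or 1.12-fold, against -0.002 over all tested genes. For 30 members (38.5%) every A1 sample lay above every Negative sample, as for 28% of all genes.

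These counts moved with the scale and with the sample left out. CPM here were scaled by edgeR's trimmed mean of M-values (TMM), whose factors were 1.03 to 1.04 in the Negative and 0.975 to 0.993 in the treated samples. With library sizes alone 21 of 78 members were higher, a share near the 23.7% of all genes. None was lower, where 39.7% of all genes were. On that scale 75 members were above 0, and 37.4% of all calls were higher against 50.5% with TMM. The median was 0.08 for the members and -0.082 for all genes. A change of scale moves all genes by nearly the same amount, so the gap of 0.16 between these medians could hardly change and is no check. Without Negative replicate 1, 74 members were higher (31.5% of all genes) with a median of 0.20, and 70 of 78 members had every A1 sample above the remaining Negative samples (31% of all genes). Without Negative replicate 4, 52 members were higher, and without A1 replicate 3 or A1 replicate 1, 58 or 59. The share of all genes that were higher is not given here for these fits. Of their calls over all genes 50.5%, 49.7% and 49.5% were higher, and 0 members were lower.

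**Figure D3:**
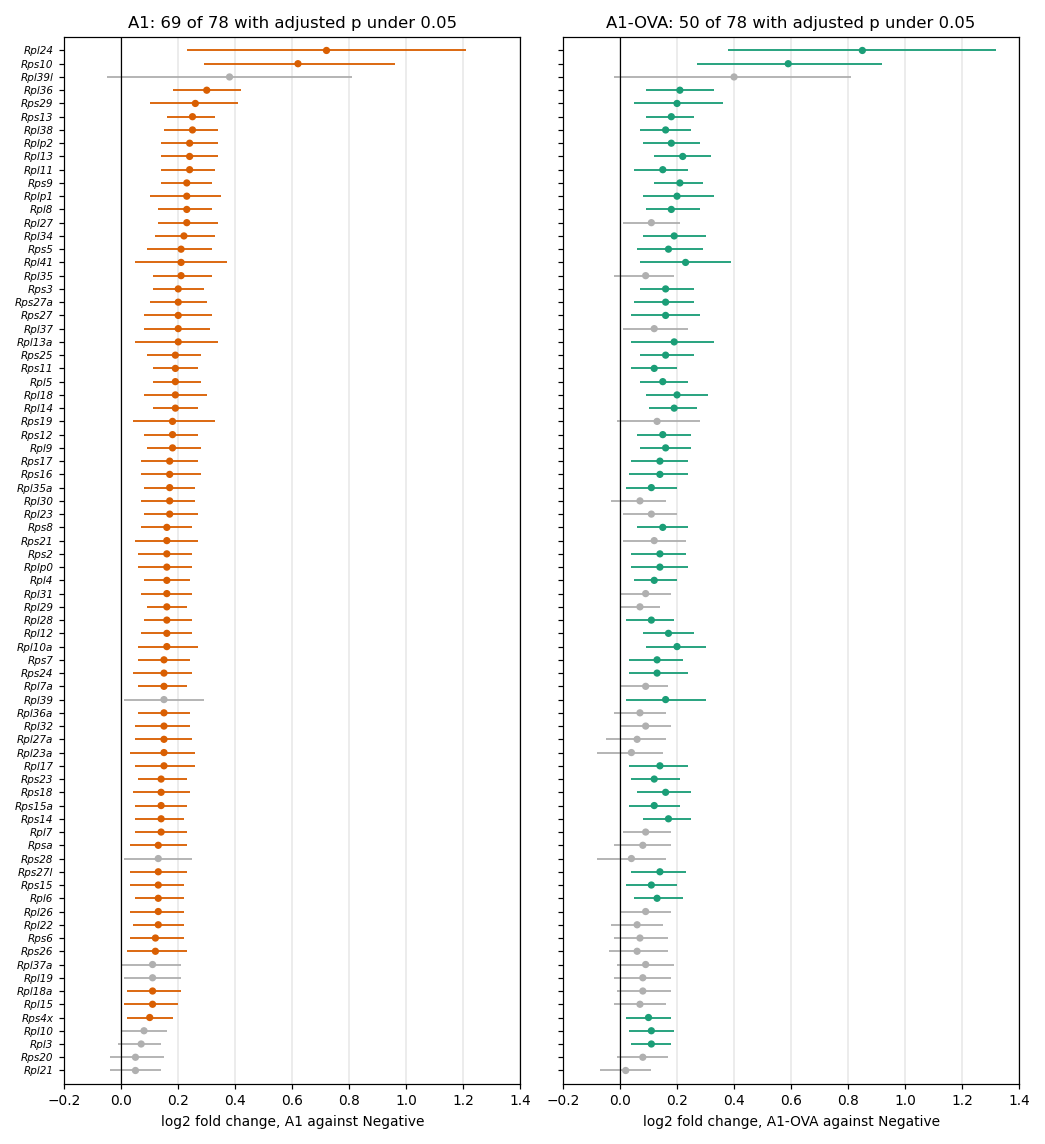
Log2 fold change against the Negative group for the 78 tested members (points) with 95% confidence intervals (lines) from edgeR's fit, in A1 (left) and A1-OVA (right), in the order of the A1 values; coloured entries have an adjusted p under 0.05 and grey ones do not. Most values lie between 0.02 and 0.30, with Rpl24 and Rps10 to the right; both panels use the same 4 Negative samples.

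Members of both subunits rose with A1: 40 of 47 tested members of the 60S and 29 of 31 of the 40S subunit passed the test, each subunit with a median log2 fold change of 0.16. Apart from Rpl24 and Rps10, which are taken up below because their rows hold few counts, Rpl36 of the large subunit rose most among the members that passed. Its CPM were 185, 142, 158 and 159 in the Negative, 209, 205, 196 and 183 in the A1, and 187, 184, 190 and 187 in the A1-OVA samples. Negative replicate 1 again reached the lower treated values, so that the groups overlapped. The log2 fold change was 0.30 ± 0.0574 (SE, n = 4 against 4; edgeR adjusted p = 0.000123).

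Other leading members belonged to either subunit. Rps13, a 40S protein next to the platform, had 228, 201, 212 and 210 CPM in the Negative and 256, 250, 255 and 251 CPM in the A1 samples, which lay wholly above. It rose by 0.25 ± 0.0409 on the log2 scale (edgeR adjusted p = 2.08e-05). Rpl38, known for its part in translating Hox messages, rose by 0.25 ± 0.0453 without overlap. Rps29, a zinc-binding protein of the 40S head, rose by 0.26 ± 0.0759, although Negative replicate 1 (129 CPM) lay within the A1 range of 125 to 135 CPM. Rpl13 and Rps9, the latter at the mRNA entry channel of the small subunit, rose by 0.24 ± 0.0486 and 0.23 ± 0.0419 without overlap. Rpl41, the smallest ribosomal protein, rose by 0.21 ± 0.0766 from 439 ± 61.1 to 508 ± 56.4 CPM (SD, n = 4) with overlapping samples. Rpl41 was called in 8 of the 12 fits that left a sample out. Rps29 and Rpl41 were not called with library sizes alone.

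The P stalk, which recruits translation factors to the large subunit, rose as a whole. Its base Rplp0 had 1440, 1180, 1300 and 1280 CPM in the Negative and 1500, 1420, 1460 and 1420 CPM in the A1 samples. Its tips Rplp1 and Rplp2 went from 272 ± 30.6 to 318 ± 20.2 CPM (SD, n = 4) and from a mean of 246 to 290 CPM. The log2 fold changes were 0.16 ± 0.0472, 0.23 ± 0.0593 and 0.24 ± 0.0483, and of the 3 only Rplp2 had no overlap between samples. With library sizes alone Rplp1 and Rplp2 were still called and Rplp0 was not.

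Rpl5 and Rpl11, which with 5S RNA form the particle that can bind Mdm2, both rose with A1. Rpl11 had 244, 216, 216 and 219 CPM in the Negative and 274, 259, 268 and 252 CPM in the A1 samples, so that even the high Negative replicate 1 stayed below them. Its log2 fold change was 0.24 ± 0.0454 (edgeR adjusted p = 0.000125) and that of Rpl5 0.19 ± 0.0403 (edgeR adjusted p = 0.000293). Among 5 genes of the branch from this particle to p53, 2 rose and 1 fell with A1, which is near the 31.7% and 31.1% of all tested genes: Cdkn1a, the cell cycle inhibitor and p53 target, rose by 0.51 ± 0.0583, Mdm2 by 0.24 ± 0.0421, and Mdm4 changed by -0.21 ± 0.0918 (edgeR adjusted p = 0.0489). Trp53 itself had a log2 fold change of 0.04 (edgeR adjusted p = 0.391).

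In the polypeptide exit tunnel and its rim 7 of 9 members rose with A1 (median 0.15), among them Rpl22 by 0.13 ± 0.0447. Rpl22 was not called with library sizes alone. In the 40S head 12 of 14 rose (median 0.18). Rps3, a head protein at the mRNA entry channel, had 657, 566, 576 and 572 CPM in the Negative and 710, 665, 690 and 659 CPM in the A1 samples, a rise of 0.20 ± 0.0449. Rps27a, made as a fusion with ubiquitin, rose by 0.20 ± 0.049. Of 18 genes in which mutations are known in Diamond-Blackfan anemia, a failure of red cell production, 17 rose (median 0.18). The shares of the tunnel, head and anemia lists, 77.8%, 85.7% and 94.4%, were near the 88.5% of all tested members. They therefore do not set these lists apart from the family, beside 31.7% of all tested genes.

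Members with well-known roles outside these groups also rose. Rps6, the substrate of S6 kinase, had 403, 410, 381 and 389 CPM in the Negative and 434, 412, 457 and 419 CPM in the A1 samples and rose by 0.12 ± 0.0457 (edgeR adjusted p = 0.0259). Rpsa, also known as the laminin receptor precursor, rose by 0.13 ± 0.049, Rpl23, another Mdm2-binding protein, by 0.17 ± 0.0469, and Rps4x, encoded on the X chromosome, by 0.10 ± 0.0389. The 3 members highest per kilobase of transcript in the Negative samples, Rps15, Rps12 and Rps26 (1230, 1210 and 1060 CPM per kb), rose by 0.13 ± 0.0439, 0.18 ± 0.0476 and 0.12 ± 0.0495. Samples overlapped for Rps4x, Rps15, Rps12 and Rps26. Rps6, Rpsa, Rps4x, Rps15 and Rps26 were called in 8, 9, 8, 7 and 7 of the 12 fits that left a sample out. Rpl23 and Rps12 were called in all 12. None of the members in this paragraph was called with library sizes alone.

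The 9 members that missed the threshold with A1 were Rpl3, Rpl10, Rpl19, Rpl21, Rpl37a, Rpl39, Rpl39l, Rps20 and Rps28, named here after their values were seen. Rpl3, which sits near the peptidyl transferase centre, had 646, 634, 628 and 614 CPM in the Negative and 667, 646, 677 and 650 CPM in the A1 samples. These values touch at 646 CPM, and the log2 fold change was 0.07 with a 95% interval of -0.01 to 0.14 (edgeR adjusted p = 0.101). Rpl21 and Rps20 were lowest, with 0.05 each, and with library sizes alone Rpl3, Rpl21 and Rps20 lay below 0.

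With A1 together with ovalbumin most members were also higher, against the same 4 Negative samples. In edgeR's test 50 of 78 members (64.1%) were higher and 0 lower at an adjusted p under 0.05, where 29.7% of all tested genes were higher and 27.9% lower. At an unadjusted p under 0.05 these counts were 57 and 0 (31.5% and 30.4% of all genes). DESeq2 called 46 and 0, while 50.7% of its calls over all genes were higher. All 78 log2 fold changes were above 0 (50.5% of all genes), with a median of 0.13, or 1.1-fold, against 0.004 over all genes. Samples did not overlap for 13 members (16.7%), a smaller share than the 25.4% of all genes. By subunit, 26 of 47 of the 60S and 24 of 31 of the 40S members rose.

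The A1-OVA counts moved with the same settings. With library sizes alone 12 of 78 members were higher, a smaller share than the 23.1% of all genes. None was lower, where 36.2% of all genes were. On that scale 72 members were above 0, and the median was 0.07 while that of all genes was -0.062. Without Negative replicate 1, 65 members were higher (29.4% of all genes), the median was 0.18, and 59 of 78 did not overlap (28.7% of all genes). Without Negative replicate 4, 34 were higher. The share of all genes is not given here for that fit, in which 51.4% of the calls over all genes were higher.

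The comparison shares its Negative samples with that of A1, so that the members are given side by side. Besides Rpl24 and Rps10, Rpl41 rose by 0.23 ± 0.0765 with A1-OVA, Rpl13 by 0.22 ± 0.0484, Rpl36 by 0.21 ± 0.0573 and Rps9 by 0.21 ± 0.0418. Rps13 had 256, 234, 233 and 240 CPM and lay above all Negative samples, with a rise of 0.18 ± 0.0408. The P stalk (3 of 3) and Rpl5 and Rpl11 (0.15 each) rose, as did 11 of 14 members of the 40S head, 10 of the 18 anemia genes and 3 of 9 of the exit tunnel. The shares of the last lists were 78.6%, 55.6% and 33.3%, beside 64.1% of all tested members and 29.7% of all tested genes. Rps6 had 450, 419, 383 and 414 CPM, across the Negative range, with a log2 fold change of 0.07 (edgeR adjusted p = 0.179). Rpl3, with 693, 682, 661 and 685 CPM, lay above all Negative samples and rose by 0.11 ± 0.0341 (edgeR adjusted p = 0.00887). With library sizes alone Rpl13, Rpl36, Rps9 and Rps13 were still called, while Rpl41, Rpl3, Rpl5, Rpl11 and the P stalk were not.

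Against A1 alone, adding ovalbumin changed no member beyond the threshold: edgeR called 0 of 78 higher and 0 lower, where 6.05% of all tested genes were higher and 6.81% lower, and DESeq2 also called 0. At an unadjusted p under 0.05 no member was higher and 4 were lower in either tool, where 13.9% and 13.5% of all genes were in edgeR. In edgeR these were Rpl29, Rpl35, Rpl27 and Rpl30, named after their values were seen, with log2 fold changes of -0.09, -0.13, -0.12 and -0.10 and adjusted p of 0.087 to 0.16. Fold changes were below 0 for 64 members and above 0 for 14, with a median of -0.03 against 0.006 over all genes. For the 75 members of at least 10 CPM in the Negative samples, the 95% intervals of the difference lay within -0.23 and 0.18 on the log2 scale. Leaving out A1-OVA replicate 1 turned 2 members into lower calls.

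**Figure D4:**
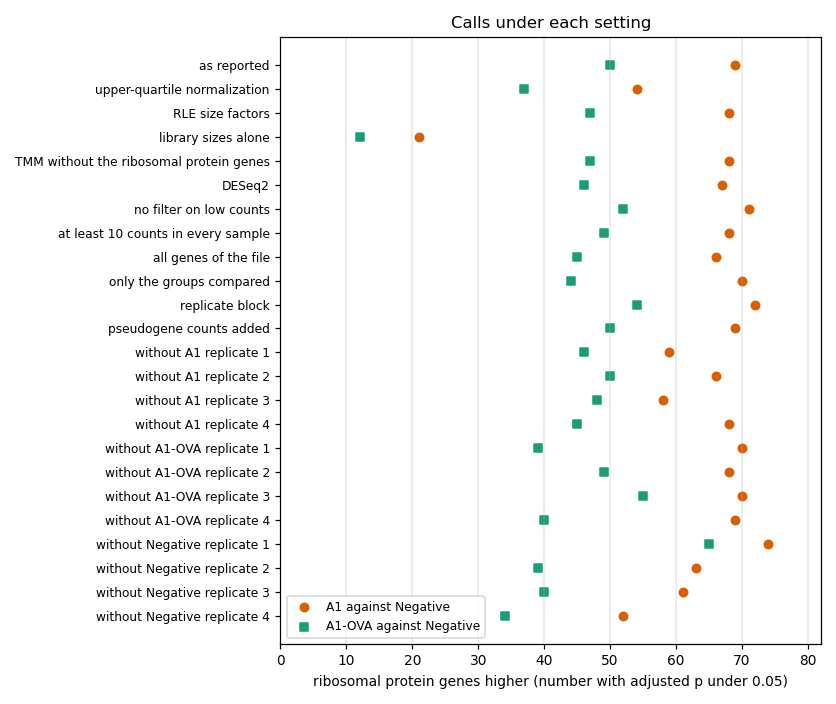
Number of ribosomal protein genes higher than in the Negative group (edgeR or DESeq2, adjusted p under 0.05) under each setting, for A1 (circles) and A1-OVA (squares); 78 members were tested, or 80 with no filter on low counts. Library sizes alone stand apart with 21 and 12, and the sample left out moves the A1 count between 52 and 74 and the A1-OVA count between 34 and 65.

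The largest fold changes came from rows with few counts. Rpl24, a protein of the bridge between subunits (gene at chr16:55966275-55971435, GRCm38, plus strand), had 16, 11, 13 and 12 counts in the Negative, 23, 16, 16 and 16 in the A1, and 19, 20, 20 and 29 in the A1-OVA samples, 211 in all. In CPM every treated sample lay above every Negative one (0.65 to 0.99 CPM in the Negative, 1.16 to 1.66 CPM in the A1 and 1.27 to 1.79 CPM in the A1-OVA samples). The log2 fold changes were 0.72 ± 0.237 with A1 (edgeR adjusted p = 0.0118) and 0.85 ± 0.226 with A1-OVA (edgeR adjusted p = 0.00294). At 1.18 CPM per kb in the Negative group it was the lowest of the tested members, of which Rps15 reached 1230 CPM per kb.

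Rps10, a protein of the 40S head (chr17:27630418-27636669, minus strand), had 79, 69, 64 and 65 counts in the Negative, 70, 99, 94 and 89 in the A1, and 75, 75, 118 and 124 in the A1-OVA samples. Its CPM were 4.89, 4.08, 3.96 and 4.08, then 5.06, 7.56, 7.18 and 6.46, then 5.44, 4.75, 7.79 and 7.64. All A1 samples were above the Negative ones, but A1 replicate 1 only just, and A1-OVA replicate 2 was within the Negative range. The log2 fold changes were 0.62 ± 0.161 with A1 and 0.59 ± 0.158 with A1-OVA (edgeR adjusted p = 0.00209 and 0.00286). With the counts of its named pseudogenes added they were 0.45 and 0.43, still past the threshold. Rpl24 and Rps10 were the only members past a log2 fold change of 0.5 in either treatment, a size that 9.41% of all genes exceeded upward with A1 and 8.92% with A1-OVA.

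The annotation shows another gene over these rows. On the same strand, exons of another gene cover 71.5% of the reference transcript of Rpl24 (Gm28037), 59.3% of that of Rpl13a (Gm45713) and 53.6% of that of Rps10 (RPS10-NUDT3), and each of the 3 covering genes had 0 counts in every sample. The next 2 members were Rpl32 with 15.5% and Rpl19 with 10.7%. Rpl13a, at 33.1 CPM per kb, was the lowest tested member after Rpl24, Rpl39l and Rps10, and it rose by 0.20 ± 0.0715 with A1 and by 0.19 ± 0.0706 with A1-OVA. In either comparison Rpl13a was called in 7 of the 12 fits that left a sample out, and not with library sizes alone. How reads over shared exons were counted is not given in the sources used here, so the levels of these 3 rows may not be those of the genes.

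**Figure D5:**
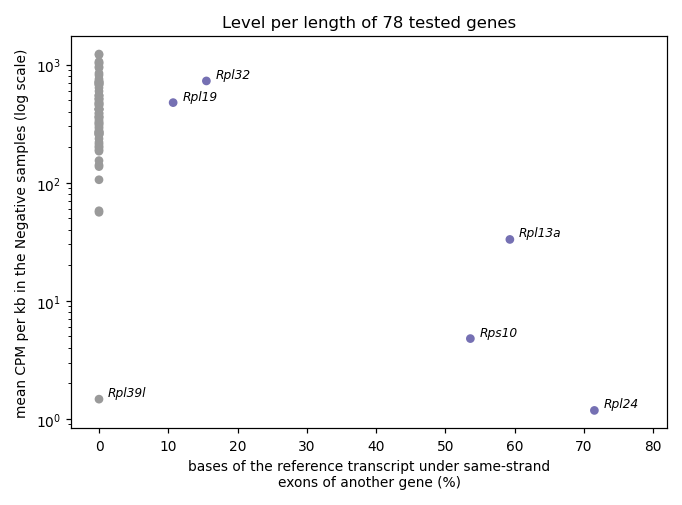
Mean level of each tested member in the Negative samples (CPM per kb of its reference transcript, log scale) against the share of that transcript under same-strand exons of another gene (%); each point is 1 gene. Rpl24, Rps10 and Rpl13a combine more than 50% of covered bases with levels of 1.18, 4.79 and 33.1 CPM per kb, and Rpl39l is low with 0% covered.

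Ribosomal protein genes have many processed pseudogenes, copies of their spliced mRNAs, which can take or hide reads. The table held 297 rows named after a member with the suffix -ps, of which 185 never exceeded 3 counts. Together they held 0.208 to 0.271% of all ribosomal protein counts per sample, with means of 0.229% in the Negative, 0.237% in the A1 and 0.233% in the A1-OVA group, so the groups overlapped. By sequence, 913 rows of pseudogene type shared at least 50 different words of 31 bases with a member, and held 0.690 to 0.814%. Reads with more than 1 match are not visible in the table, so the reads lost to them cannot be counted.

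The named pseudogene rows with most counts over the 12 samples were Rpl14-ps1 (1219), Rps16-ps2 (938), Rps24-ps3 (896), Rpl10a-ps1 (763) and Rps10-ps2 (711). On rows named after it, Rps10 had the largest part of its counts, 47.5%, followed by Rpl13a (2.37%), Rps16 (2.12%), Rpl14 (1.78%) and Rpl10a (1.62%). By sequence, 525 counts lay on pseudogenes of Rpl24, which is 71.3% of these and its own counts, and the order after Rps10 (47.5%) was Rpl13a (10.7%), Rpl21 (5.91%), Rpl37 (3.41%) and Rpl18 (2.8%). Adding the counts of named pseudogenes to their members left 69 and 50 members higher.

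Sequence shared with other genes was common. The median member had 33.4% of all 100-base windows of its reference transcript also present in a transcript of another gene, pseudogenes included, from 0% for Rps3, Rpl22 and Rps27l to 98.4% for Rps27. Next came Rpl5 (91.1%), Rpl10a (87.1%), Rpl9 (87.0%) and Rpl10 (84.4%). With A1, 27 of 30 members with at least 50% of windows shared and 42 of 48 with less were higher, with medians of 0.17 and 0.16.

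Paralogs were expressed to different degrees. Rps27 and its paralog Rps27l, a p53 target, had 638 and 190 CPM per kb in the Negative group and rose by 0.20 ± 0.0573 and 0.13 ± 0.047 with A1. Neither was called with library sizes alone. Rpl39l, known from testis, had 1.47 CPM per kb and log2 fold changes of 0.38 with A1 and 0.40 with A1-OVA that missed the threshold (edgeR adjusted p = 0.129 and 0.109). Rpl3l had 0 to 2 and Rpl10l 0 to 1 counts per sample. Rps4l is annotated as a pseudogene and was not a member.

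Ribosomal protein genes and paralogs that the name rule misses were also measured. Fau, a ubiquitin-like fusion that yields the small-subunit protein eS30, had 209, 164, 187 and 183 CPM in the Negative and 238, 212, 217 and 220 CPM in the A1 samples, and rose by 0.26 ± 0.0538. Rack1, the signalling scaffold of the 40S head, rose by 0.23 ± 0.052, and Rpl7l1 by 0.30 ± 0.0405. Rps3a1, Rpl22l1 and Rpl36al had log2 fold changes of 0.09, 0.06 and 0.43 with A1 that missed the threshold (edgeR adjusted p = 0.0953, 0.352 and 0.139).

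Members with and without a TOP tract at the start both rose: with A1, 26 of 28 members with a tract and 26 of 30 tested members with a listed start but no tract were higher, with medians of 0.16 and 0.17. Among 17 other genes whose mRNAs are known to carry a TOP tract, 12 rose and 3 fell with A1 (median 0.13). Of all tested genes, 31.7% rose and 31.1% fell. Npm1, a nucleolar chaperone, rose by 0.50 ± 0.0489 and the filament protein Vim by 0.49 ± 0.0337. Eif3e, a subunit of initiation factor eIF3, fell by 0.24 ± 0.0425 on the log2 scale, and the elongation factor Eef1a1 had a log2 fold change of 0.00. With A1-OVA 10 rose and 1 fell, beside 29.7% and 27.9% of all genes.

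Genes of the pathway that acts on TOP mRNAs were called in both directions, in shares near those of all genes. Of 20 tested genes of mTORC1, LARP1 and the S6 kinases, 5 rose and 8 fell with A1, where 31.7% of all tested genes rose and 31.1% fell, and the median of their log2 fold changes was -0.01. Sesn1, an inhibitor of mTORC1, had 48.8 ± 2.55 CPM in the Negative and 23.2 ± 1.5 CPM in the A1 samples (SD, n = 4) and fell by 1.07 on the log2 scale. Deptor, another inhibitor, fell by 0.76, while Eif4ebp1, a repressor of cap binding and mTORC1 substrate, rose by 0.72 ± 0.0598 and Larp1 by 0.25 ± 0.0407. With A1-OVA 5 rose and 6 fell, beside 29.7% and 27.9% of all genes.

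Most chaperones and escorts of ribosomal proteins rose with both treatments. Of 12 such genes, 10 were higher and 0 lower with A1 (median 0.32), and 9 higher and 1 lower with A1-OVA (median 0.28). Of all tested genes, 31.7% were higher and 31.1% lower with A1, and 29.7% and 27.9% with A1-OVA. Grwd1, known to escort Rpl3, had 25.7 ± 1.73 CPM in the Negative and 43.7 ± 2.81 CPM in the A1 samples (SD, n = 4), a rise of 0.76 ± 0.0626 beside the 0.07 of Rpl3. Ltv1, which helps place Rps3, rose by 0.66 ± 0.0405 beside the 0.20 of Rps3. Heatr3 for Rpl5 (0.30 ± 0.0431), Bccip for Rpl23 (0.33 ± 0.0522) and Tsr2 for Rps26 (0.33 ± 0.0515) also rose. These differences between genes were not tested against each other. Tsr2 was the 1 gene of this list that differed between A1-OVA and A1, with a log2 fold change of -0.25 (edgeR adjusted p = 0.00236).

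The proteins of the mitochondrial ribosome are also encoded in the nucleus. Of 77 tested genes 32 (41.6%) were higher and 2 lower with A1, beside 31.7% and 31.1% of all tested genes, with a median of 0.11 and a range of -0.56 to 0.56. Mrps18a rose by 0.56 and Mrpl12 by 0.49, while Mrps6 fell by 0.56 and Mrpl51 by 0.17. With A1-OVA 34 were higher and 3 lower, beside 29.7% and 27.9% of all genes.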

How the data were processed

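Gene counts were deposited as 1 table of whole-number counts for 12 samples. Per the labels, the authors prepared polyA-selected, stranded libraries (KAPA RNA Hyperprep), aligned reads with STAR 2.7 to GRCm38 and counted them with featureCounts 2.0 (bcl2fastq 2.20 is also named in the submitters' processing notes); the handling of reads with several matches is not given in the sources used here. Symbols, gene types and coordinates came from GENCODE M21, which matched 99.53% of 55487 gene IDs. Start-site sequences came from RefSeq (GRCm38.p6).

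Protein-coding genes kept by filterByExpr were scaled by TMM and tested in 1 fit of all 12 samples with edgeR 4.0.16 (quasi-likelihood test, Benjamini-Hochberg adjustment, R 4.3.3). The SE is the log2 fold change over the root of F. DESeq2 1.42.0, other scalings and filters, a replicate block and each sample left out were alternatives. On simulated counts edgeR called 39 of 64 genes changed by 0.25 on the log2 scale and 60 of 67 changed by 0.5, with 11 false calls. Changes below 0.25, the range of most members, were not simulated, so this check does not cover them. The simulation changed only a small part of the 11314 genes, where 62.7% were called with A1 in the data. It also drew each gene independently, so its recovery and false calls need not hold for the real fit. Same-numbered samples deviated together hardly more than others (mean r 0.021 over 12 pairs, -0.007 over 36 pairs of different numbers). The ranges, -0.132 to 0.156 and -0.183 to 0.175, overlapped. Deviations were taken from group means, which ties these mean values to each other. Numbers were not treated as pairs in the main fit. No 2 replicates agreed within sampling noise.

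The members and lists were chosen with earlier results of these data known. Named genes were the 6 members with the largest called fold change in each comparison with the Negative group, members listed for their role, the 3 highest and 3 lowest per length, genes outside the name rule (1 of which is not reported here), and those with most pseudogene counts or shared windows; other names are marked in the text or belong to the pathway lists. Settings on pseudogene rows by sequence, transcript windows, non-overlap without Negative replicate 1, and the spread after removing each sample's median were added after the data were seen.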

Additional observations from a re-analysis of the deposited data

Results flagged for a closer look

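In 132 groups of 4 samples, 13 held a sample whose gap to the nearest other sample was larger, as a part of the group's range, than Dixon's 95% limit, which chance passes in about 1 in 20 groups; these members share libraries, so the 13 are not independent. In 7 of the 13 the sample was Negative replicate 1, the highest of its group: Rps10 (4.89 CPM), Rpl11 (244 CPM), Rps3 (657 CPM), Rps27l (100 CPM), Rps15 (677 CPM), Rpl13a (39.8 CPM) and the share of ribosomal protein genes (3.57%). A1 replicate 1 was highest for Rpl24 (1.66 CPM, other A1 samples 1.16 to 1.22), Rps29 (135 CPM, others 125 to 126) and Rpl36al (2.46 CPM, others 1.30 to 1.45). A1-OVA replicate 4 was highest for Rps29 (140 CPM, others 116 to 119). Rpl22l1 was lowest in Negative replicate 4 (55.6 CPM, others 61.8 to 62.8) and highest in A1 replicate 3 (69.2 CPM, others 60.6 to 61.1). What sets these samples apart was not tested.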

How the results depend on the processing

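The counts of members higher with A1 and A1-OVA (69 and 50 of 78) were within 1.5 times of these values under every setting but 2 that kept all samples: library sizes alone (21 and 12, medians 0.08 and 0.07) and a log2 fold change of at least 0.5 (2 and 2). Of all genes, 23.7% and 23.1% were higher with library sizes alone, and 9.41% and 8.92% at that fold change. No member was lower under any of the settings that kept all samples. Leaving out 1 sample gave 52 to 74 and 34 to 65 higher. The lower ends came without Negative replicate 4 and the upper ends without Negative replicate 1. Of the called members, 50 and 29 were called whichever sample was left out, and 20 and 12 under every one of the 23 settings. No called member changed sign. Calls across settings were followed for the members only, so these counts have no share of all genes beside them. Between A1-OVA and A1 the count of lower members was 0 to 2 when a sample was left out, with 2 without A1-OVA replicate 1. With the replicate number as a block 72 and 54 members were higher (31.7% and 29.9% of all genes) and 0 differed between the treatments. The block changed no other count by over 1.5 times. The share of ribosomal protein counts on pseudogene rows was 0.753% by sequence in place of 0.233% by name, and the median share of windows also found in another gene was 49.3% at 50 bases and 54.3% at 31 bases in place of 33.4%. The search of windows in the genome was not run, since the sequences used here were transcripts. At 211 and 1021 counts in all, Rpl24 and Rps10 are the called members with the least depth.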
